A study of Mus musculus with 8 samples.

Results

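The sphingolipid and ceramide genes described here are 41 genes of sphingolipid metabolism, taken from the 55416 genes of the count table by matching Ensembl identifiers to symbols in the GENCODE mouse annotation. The rule that selects them uses function and no measured value, but the list was drawn up with earlier results of these data known and holds 7 genes that the study displays from these libraries. RNA sequencing (RNA-seq) covered the dorsal epidermis of mice at postnatal day 4. Of its 8 libraries, 4 are labelled WT and are called control here, and 4 carry the label of an epidermal Rora knockout and are called RoraEKO. In the RoraEKO mice a Cre recombinase under the keratin 14 (K14) promoter, which is active in keratinocytes of the basal layer, cuts a floxed Rora gene, and the control mice were littermates. The labels name no treatment beyond age, and nothing in them says that any library pools animals, so p-values measure the spread between these libraries.

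Sphingolipids are built on a long-chain base. In de novo synthesis, serine palmitoyltransferase joins serine and a fatty acyl-CoA, the product is reduced and N-acylated by a ceramide synthase, and a desaturase completes ceramide. Ceramide is then turned into glucosylceramide, sphingomyelin or ceramide 1-phosphate, and is released again from the first 2 by glucosylceramidases and sphingomyelinases. Ceramidases split ceramide into sphingosine and a fatty acid. Sphingosine is either acylated again, which is the salvage route, or phosphorylated to sphingosine 1-phosphate (S1P), which is dephosphorylated or cleaved for good by S1P lyase. In the epidermis, ceramides carrying very long acyl chains are main components of the lipid layers between corneocytes, and ceramide is delivered to these layers as glucosylceramide and sphingomyelin.

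Library totals ran from 17286903 to 26705533 counts, so that 3 counts corresponded to between 0.112 and 0.174 CPM (counts per 1e+06 counts of a library). CPM values below are scaled with TMM factors and are listed in the order control A1, B1, C1 and C6, then RoraEKO A3, B4, C2 and C3. Marker genes of spinous keratinocytes summed to between 44264 and 106043 CPM and those of granular keratinocytes to between 8798 and 13053 CPM, whereas 5 dermal fibroblast markers summed to at most 10.1 CPM and 3 endothelial markers to at most 2.75 CPM. Basal keratinocyte markers summed to 151 to 470 CPM in control. In RoraEKO they summed to 1142 CPM in B4 and 189 to 285 CPM in the other libraries. None of the 41 marker genes tested passed the cutoffs in the edgeR quasi-likelihood test, with 7 at an unadjusted p under 0.05 (Krt10, Casp14, Hbb-bs and Hba-a1 above 0, and Dct, Pmel and Scd3 below 0), and the spinous sum was the only marker sum whose genotypes did not overlap (44264 to 69730 CPM in control, 85106 to 106043 CPM in RoraEKO). That sum was mostly Krt1 (log2 fold change 0.70) and Krt10 (0.66). The other 2 spinous markers were below 0, Krtdap at -0.34 and Sbsn at -0.04. All 4 melanocyte markers had a log2 fold change below 0 (median -0.82, Dct -0.95, Pmel -0.84, the last without overlap), with sums of 23.8 to 54.1 CPM in control and 16.4 to 32.3 CPM in RoraEKO. All 3 erythroid markers were above 0 (median 1.77), with sums of 31.8 to 215 CPM and 83.5 to 666 CPM. The part of these markers in the results below was not tested. Rora itself was at 158, 193, 187 and 309 CPM in control and 154, 189, 237 and 206 CPM in RoraEKO (log2 fold change -0.11, SE 0.25, adjusted p = 0.877), so counts over the whole gene did not separate the genotypes, and reads from the deleted part could not be told apart from the rest. The targeted gene therefore did not check the labels. The circadian output gene Dbp separated the groups without overlap, at 3.98 to 6.01 CPM in control and 0.288 to 0.849 CPM in RoraEKO. Xist, a marker of female cells, was at 416 and 527 CPM in control C1 and C6 and at most 0.0547 CPM in the other 6 libraries, and Y-linked Ddx3y was at 0 in those 2 controls and at 15.7 to 24.1 CPM in the others. Since no RoraEKO library held Xist, values without C1 and C6 are also given for the members named with a test where the call, the sign or the size changed most.

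Of the 41 genes, 40 passed the filter on low counts, and Cers1, which overlaps Gdf1 on the same strand, had 0 counts in every library. Reads that these 2 genes share could not be told apart by strand. In the comparison of RoraEKO with control, 6 of these 40 genes fell, meaning an adjusted p under 0.05 together with a more than 1.5-fold difference, beside 3.22% of all 13147 genes tested. They were the ceramide synthases Cers5 and Cers6, the alkaline ceramidases Acer2 and Acer3, the S1P lyase Sgpl1 and the lipid phosphatase Plpp1. No member rose past the cutoffs in edgeR, where 2.3% of all genes did, and the likelihood ratio test and DESeq2 also called 0. When control C1 and C6 were left out, 3 members were called lower (Plpp1, Acer2 and Cers5) and 1 higher (Sptlc2), the same as with Xist as a covariate, and over all genes the lower calls went from 423 to 167 and the higher calls from 302 to 147. At an unadjusted p under 0.05, 9 members were lower and 5 were higher, beside 10.3% and 7.92% of all genes. An adjusted p under 0.05 without the fold cutoff was reached by 6 members that were lower, beside 3.55% of all genes, and by 2 that were higher, beside 2.48%. The median log2 fold change was -0.16 over the 40 members, from -2.21 to 0.77, and -0.04 over all genes tested. Taken in each library, the members' median log2 difference from the control mean was -0.14, 0.04, -0.07 and 0.19 in control. It was -0.28, -0.03, -0.09 and -0.13 in RoraEKO, so the genotypes overlapped.

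All 6 members called belong to 7 ceramide metabolism genes that the study displays from these same libraries (Cers5, Cers6, Acer2, Acer3, Asah1, Sgpl1 and Plpp1), so their direction is not independent evidence. Of the other 34 members, 33 were tested, none passed the cutoffs, and their median log2 fold change was -0.08. Among these 33, 2 were lower and 5 were higher at an unadjusted p under 0.05, beside 10.3% and 7.92% of all genes. In epidermis sampled in bulk, fewer cells of a type and less RNA per cell cannot be told apart.

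**Figure D1:**
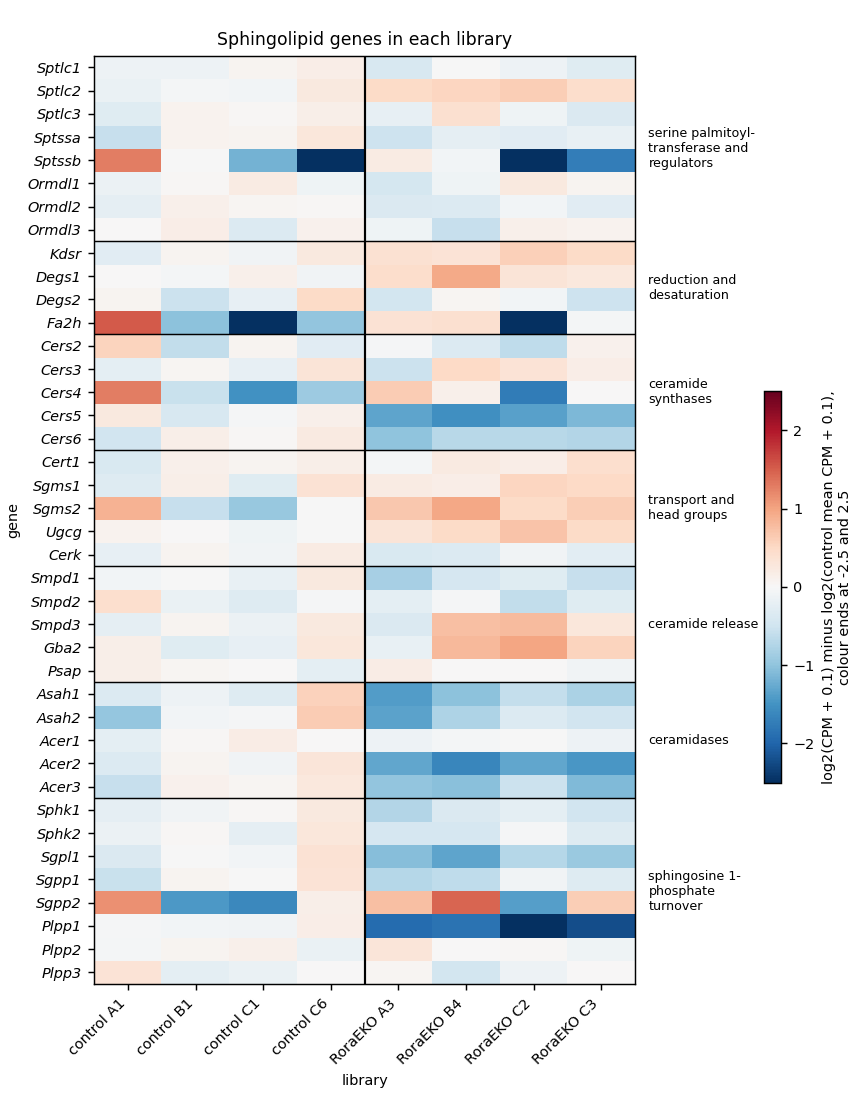
Heat map of the 40 members tested (rows, grouped by role) in the 8 libraries (columns), coloured by log2(CPM + 0.1) minus log2 of the control mean + 0.1. Plpp1, Acer2, Cers5, Cers6 and Sgpl1 are blue in all 4 RoraEKO libraries, Sptlc2, Kdsr, Degs1 and Ugcg are pale red in all 4, and Fa2h and Cers4 are red in control A1.

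The promoters of 3 members that fell and of 1 that did not pass are shown, since genes that move together invite a look at their start regions and RORα binds the motif AGGTCA. They come from RefSeq, build GRCm38.p6, cover 250 bases before to 50 after the gene start on the gene's strand, and are written 5′ to 3′ with AGGTCA in capitals. They are Cers5 (chr15:99772466-99772765, minus strand), Acer2 (chr4:86874164-86874463, plus strand), Sgpl1 (chr10:61147635-61147934, minus strand) and Smpd1 (chr7:105554110-105554409, plus strand).
Cers5: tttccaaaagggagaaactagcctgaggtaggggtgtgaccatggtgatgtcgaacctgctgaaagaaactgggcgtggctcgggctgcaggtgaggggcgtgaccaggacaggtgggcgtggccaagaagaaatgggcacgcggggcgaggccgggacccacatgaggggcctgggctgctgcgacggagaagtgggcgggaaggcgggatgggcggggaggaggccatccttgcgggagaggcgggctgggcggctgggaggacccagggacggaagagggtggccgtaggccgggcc
Acer2: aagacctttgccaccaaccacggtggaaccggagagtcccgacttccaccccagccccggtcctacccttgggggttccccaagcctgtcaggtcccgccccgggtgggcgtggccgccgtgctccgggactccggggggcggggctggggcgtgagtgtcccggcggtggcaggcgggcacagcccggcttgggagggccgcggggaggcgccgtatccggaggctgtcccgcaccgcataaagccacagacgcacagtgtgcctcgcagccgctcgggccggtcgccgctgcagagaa
Sgpl1: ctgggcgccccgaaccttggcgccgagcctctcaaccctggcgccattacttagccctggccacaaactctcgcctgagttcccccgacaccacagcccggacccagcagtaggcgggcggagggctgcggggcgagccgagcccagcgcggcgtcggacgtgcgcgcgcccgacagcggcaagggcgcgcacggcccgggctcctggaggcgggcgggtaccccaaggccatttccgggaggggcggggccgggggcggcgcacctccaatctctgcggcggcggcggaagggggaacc
Smpd1: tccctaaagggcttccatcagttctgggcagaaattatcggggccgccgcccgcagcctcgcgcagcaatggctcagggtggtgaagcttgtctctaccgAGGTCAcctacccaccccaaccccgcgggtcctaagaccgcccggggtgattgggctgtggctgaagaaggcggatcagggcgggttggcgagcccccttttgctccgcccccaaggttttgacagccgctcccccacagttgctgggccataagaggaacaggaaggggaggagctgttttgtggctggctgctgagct

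In these windows AGGTCA occurred once, in Smpd1, where it starts 150 bases before the gene start. RefSeq promoters were at hand for 37 of the 41 members, and those of Plpp1, Asah1, Smpd3 and Fa2h were not among them. On either strand, AGGTCA was found in 11 of the 37 genes (29.7%), against 18.1% of the 27025 genes with a promoter and 16.3% of the 32851 promoters. The 11 were Asah2, Cerk, Cers1, Cers2, Cers3, Psap, Sgms1, Sgms2, Sgpp2, Smpd1 and Sphk1, and the 5 called members with a promoter (Cers5, Cers6, Acer2, Acer3 and Sgpl1) were not among them. The longer form TAGGTCA, which contains AGGTCA, was found in 1 member, Sgpp2, and in 2.97% of all genes. TAGGTCA preceded by A and any 2 bases was found in no member and in 0.700% of promoters. GC content was 67.7% in the Cers5 window, 73% in Acer2, 75.3% in Sgpl1 and 63% in Smpd1, beside a median of 52.7% over all promoters. A match or its lack in this window says nothing about binding elsewhere.

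For the first step of de novo synthesis, of 8 genes for serine palmitoyltransferase and its regulators none passed the cutoffs, and their median log2 fold change was -0.15. At an unadjusted p under 0.05, 1 was higher, beside 7.92% of all genes. The gene at that level was Sptlc2, a catalytic subunit, at 39.4, 42.6, 42.3 and 52.2 CPM in control and 61.1, 63.7, 67.7 and 59.8 CPM in RoraEKO. Every RoraEKO library lay above every control library, and the log2 fold change of 0.52 (SE 0.10, n = 4 per genotype) had an adjusted p of 0.0303, but the fold change of 1.43 stayed under the cutoff of 1.5. Without control C1 and C6 Sptlc2 passed both cutoffs, with a log2 fold change of 0.67 and an adjusted p of 0.0462.

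The partner subunit Sptlc1 gave 94.7 to 117 CPM in control and 78.0 to 103 CPM in RoraEKO, with an adjusted p of 0.481. Sptlc3, another catalytic subunit, gave 35.6 to 48.3 CPM in control and 33.8 to 57.8 CPM in RoraEKO, and the 2 ranges overlapped. By CPM per kb of merged exons, Sptlc2 made up 10.3% to 11.6% of the summed level of the 3 large subunits in control and 13.4% to 17.5% in RoraEKO, ranges that did not overlap. The small activating subunit Sptssa had the highest level of the 8 genes per length, 90.4 CPM per kb in control and 73.6 CPM per kb in RoraEKO. It was at 94.5, 151, 147 and 173 CPM in control and 98.3, 121, 117 and 124 CPM in RoraEKO, where the ranges overlapped, and its log2 fold change of -0.30 (SE 0.20) had an adjusted p of 0.458, or -0.04 and 0.933 without control C1 and C6. The small subunit Sptssb ranged from 0.863 to 15.5 CPM in control. The ORMDL proteins, which restrain the enzyme, came from genes with log2 fold changes of -0.03 (Ormdl1), -0.26 (Ormdl2) and -0.09 (Ormdl3), and none had an adjusted p below 0.279.

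The 4 genes for reduction, which precedes the ceramide synthases, for desaturation, which follows them, and for hydroxylation of the fatty acid had a median log2 fold change of 0.17. Of them 0 were called, beside 3.22% lower and 2.3% higher of all genes. At an unadjusted p under 0.05, 2 were higher, beside 7.92% of all genes. Kdsr, the reductase that follows serine palmitoyltransferase, was at 24.1, 30.9, 27.7 and 34.7 CPM in control and 38.1, 37.0, 44.6 and 40.9 CPM in RoraEKO. Degs1, the desaturase that turns dihydroceramide into ceramide, was at 111, 108, 121 and 104 CPM in control and 151, 215, 138 and 133 CPM in RoraEKO. For both genes all RoraEKO libraries lay above all controls, and the adjusted p was 0.089 for Kdsr (log2 fold change 0.45, SE 0.13) and 0.112 for Degs1 (log2 fold change 0.52, SE 0.16). Over all members, 4 had RoraEKO above control in this way, namely Sptlc2, Kdsr, Degs1 and Ugcg, or 4 of 40 beside 5.4% of all genes.

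Degs2, which also makes phytoceramides, did not separate the genotypes, at 8.25 to 17.0 CPM in control and 8.44 to 12.5 CPM in RoraEKO. Fa2h, which adds the alpha-hydroxyl group to fatty acids, varied more between libraries than between genotypes. It was at 96.1, 16.2, 3.74 and 16.7 CPM in control and 42.5, 43.7, 5.44 and 32.2 CPM in RoraEKO, with a log2 fold change of -0.10 (SE 1.19, adjusted p = 0.977) that turned to 1.34 without control A1 and was -0.79 without control C1 and C6 (adjusted p = 0.662). Control A1 also held the highest sums of sebocyte markers (150 CPM, against 18.1 to 35.8 CPM in the other controls) and of hair shaft markers (2260 CPM, against 336 to 654 CPM). Their part in the Fa2h level was not tested.

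Of 5 ceramide synthases tested 2 fell, beside 3.22% of all genes, and the median log2 fold change was -0.22, beside -0.04 over all genes. Both, Cers5 and Cers6, are among the genes that the study displays from these libraries. Each synthase adds acyl chains of its own length range: Cers5 and Cers6 are known for C16 chains, Cers2 and Cers4 for longer ones, and Cers3 for the ultra-long chains of barrier ceramides. Cers5 (ENSMUSG00000023021, GRCm39 chromosome 15, 99632477 to 99670783) was at 17.4, 11.1, 14.3 and 16.1 CPM in control and 5.81, 5.01, 5.69 and 6.69 CPM in RoraEKO. The groups were well apart, and Cers5 fell by 1.35 on the log2 scale (SE 0.16, adjusted p = 0.00182), a 2.54-fold lower level. Cers6 (ENSMUSG00000027035, chromosome 2, 68691455 to 68944627) was at 11.9, 18.4, 17.0 and 19.5 CPM in control and 8.22, 10.3, 10.3 and 10.04 CPM in RoraEKO. It fell by 0.78 on the log2 scale (SE 0.18, adjusted p = 0.0278), with no overlap between groups. Without control C1 and C6 the adjusted p was 0.0288 for Cers5 and 0.224 for Cers6, with log2 fold changes of -1.25 and -0.58.

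Cers3 was by far the highest ceramide synthase per length and did not separate the genotypes. It was at 104, 128, 107 and 154 CPM in control and 85.3, 175, 156 and 139 CPM in RoraEKO (log2 fold change 0.17, SE 0.26, adjusted p = 0.78, or 0.31 and 0.612 without control C1 and C6). It made up 74.3% to 87.3% of the family's summed CPM per kb in control and 81.4% to 93.8% in RoraEKO. The share of Cers5 was 5.09% to 8.38% in control and 1.77% to 3.73% in RoraEKO, and that of Cers6 was 2.96% to 4.70% and 1.88% to 2.73%, in each case without overlap. Thus the 2 synthases that fell supplied a minor part of the family's transcripts. Cers4 was at 78.4, 21.7, 11.1 and 17.1 CPM in control and 49.9, 35.0, 9.54 and 32.2 CPM in RoraEKO, again highest in control A1, and its log2 fold change of -0.03 (SE 0.79, adjusted p = 0.993) turned to 0.92 without that library and was -0.60 without control C1 and C6 (adjusted p = 0.67). Cers2 stayed between 0.915 and 2.21 CPM in all libraries.

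Genes for ceramide transport and head groups had a median log2 fold change of 0.36, with 0 of 5 called. At an unadjusted p under 0.05, 1 was higher, beside 7.92% of all genes. That gene was Ugcg, glucosylceramide synthase, at 178, 168, 156 and 166 CPM in control and 208, 231, 272 and 234 CPM in RoraEKO. All RoraEKO libraries lay above the controls, and the log2 fold change of 0.50 (SE 0.09) had an adjusted p of 0.044, with a fold change of 1.42 that was under the cutoff. Without control C1 and C6 the log2 fold change was also 0.50, with an adjusted p of 0.188. The transport protein gene Cert1 (log2 fold change 0.20) and the sphingomyelin synthase gene Sgms1 (0.36, SE 0.20) had adjusted p values of 0.575 and 0.335. Sgms2 stayed below 1 CPM in every library, and ceramide kinase, Cerk, was at 69.3 to 92.5 CPM in control and 62.1 to 75.2 CPM in RoraEKO (adjusted p = 0.305).

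The genes that release ceramide from sphingomyelin and glucosylceramide did not move one way, with 0 of 5 called and a median log2 fold change of 0.03. At an unadjusted p under 0.05, 1 was lower and 1 higher, beside 10.3% and 7.92% of all genes. Smpd1, the acid sphingomyelinase of lysosomes, was at 333, 345, 307 and 413 CPM in control and 196, 262, 283 and 233 CPM in RoraEKO. All RoraEKO values were below the controls, and the log2 fold change of -0.52 (SE 0.15) had an adjusted p of 0.0957. The neutral sphingomyelinase gene Smpd3 ranged from 176 to 245 CPM in control and from 159.8 to 354 CPM in RoraEKO, so that the genotypes overlapped. Per kb, Smpd1 made up 71.0% to 72.6% of the 3 sphingomyelinases in control and 54.4% to 64.5% in RoraEKO, and Smpd3 made up 22.6% to 25.9% and 30.9% to 42.3%. These shares are descriptions, picked out after their values were seen, and carry no test.

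Gba2, the non-lysosomal glucosylceramidase, was at 70.8, 51.8, 55.8 and 77.8 CPM in control and 56.0, 113, 127 and 94.6 CPM in RoraEKO. RoraEKO A3 lay among the controls and the other 3 above them, and the log2 fold change of 0.61 (SE 0.29) had an adjusted p of 0.218. Without A3 it was 0.85 with an adjusted p of 0.0284, which passed. Gba2 overlaps Creb3 and Rgp1 on the opposite strand. Smpd2 gave 17.8 to 30.0 CPM in control and 14.6 to 21.9 CPM in RoraEKO, and Psap, the precursor of the saposins that assist lysosomal hydrolases, gave 196 to 255 CPM and 219 to 263 CPM (adjusted p = 0.946).

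**Figure D2:**
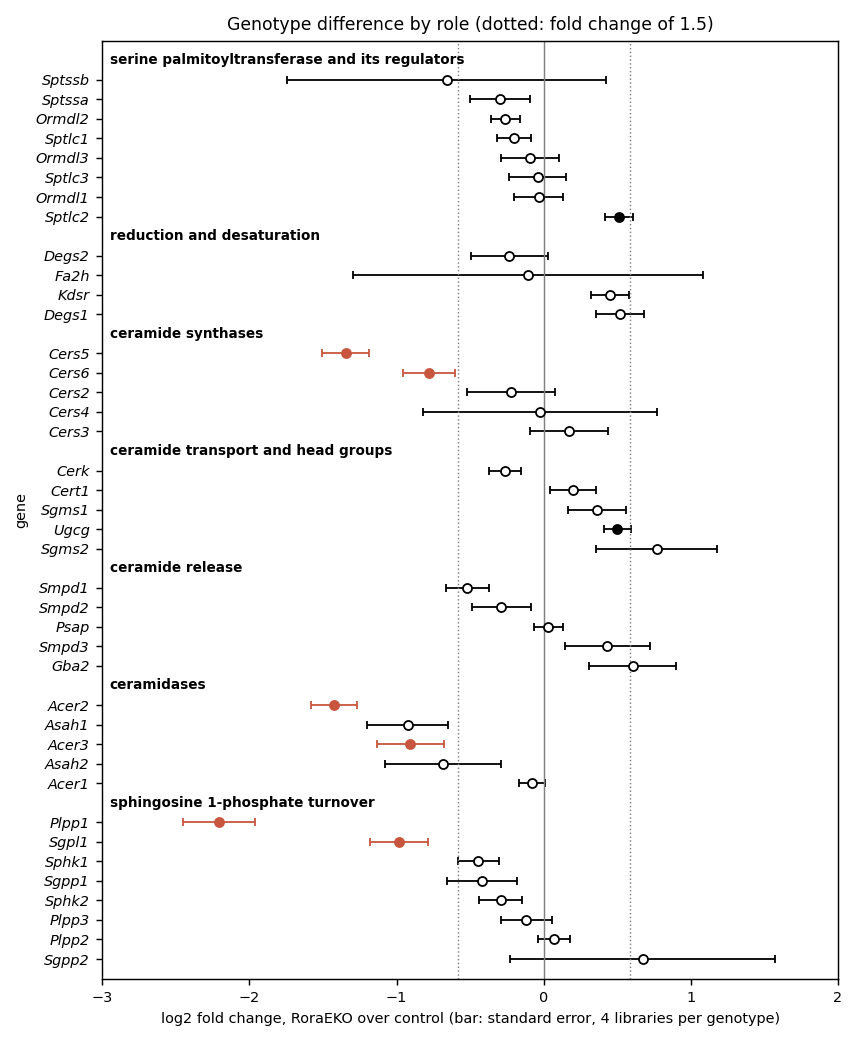
Log2 fold change of RoraEKO over control (x axis) for the 40 members tested, by role, with the standard error of 4 against 4 libraries. Red points passed both cutoffs, black filled points (Sptlc2, Ugcg) passed the adjusted p alone, open points passed neither, and all 5 ceramidases lie at or left of 0.

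Ceramidases were the role with the lowest median log2 fold change, -0.91 beside -0.04 over all genes, and 2 of 5 fell, beside 3.22% of all genes. However, Acer2, Acer3 and Asah1 are among the genes that the study displays from these libraries, and the median is the value of Acer3. The ceramidases not displayed were Asah2 at -0.68 and Acer1 at -0.08, and neither was called. Acer2 (ENSMUSG00000038007, chromosome 4, 86792537 to 86853061), an alkaline ceramidase of the Golgi, was at 19.4, 25.8, 23.2 and 30.3 CPM in control and 9.98, 7.89, 9.93 and 8.99 CPM in RoraEKO. It fell by 1.43 on the log2 scale (SE 0.16, adjusted p = 0.00104), or 2.69-fold, and every control was well above every RoraEKO library. Acer3 (ENSMUSG00000030760, chromosome 7, 97855596 to 97970415), which prefers unsaturated ceramides, was at 12.9, 20.8, 20.0 and 23.2 CPM in control and 9.66, 9.29, 13.2 and 8.84 CPM in RoraEKO. It fell by 0.91 on the log2 scale (SE 0.23, adjusted p = 0.0312), although RoraEKO C2 lay just above control A1. Without control C1 and C6 Acer2 kept an adjusted p of 0.0138 (log2 fold change -1.25), and Acer3 had 0.224 (log2 fold change -0.67).

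Asah1, the lysosomal acid ceramidase, lay just outside the cutoffs. It was at 27.6, 32.3, 28.2 and 52.2 CPM in control and 13.2, 17.2, 23.2 and 20.1 CPM in RoraEKO, without overlap. Its log2 fold change of -0.93 (SE 0.27) had an adjusted p of 0.0564, which ranged from 0.00922 to 0.231 over the alternatives, with 6 of 21 passing. DESeq2, the likelihood ratio test, the fit without control A1 and the fit with the letter of the sample titles as a block (adjusted p = 0.0161) were among those that passed, and the fit without control C1 and C6 gave 0.192. Asah2, the neutral ceramidase, was at 61.7, 115, 118 and 186 CPM in control and 47.2, 70.6, 94.6 and 86.8 CPM in RoraEKO (log2 fold change -0.68, SE 0.39, adjusted p = 0.30). The genotypes overlapped, but within each title letter RoraEKO was lower, and with the letter as a block Asah2 passed (log2 fold change -0.65, adjusted p = 0.0344). It passed under no other alternative, with an adjusted p of up to 0.793 without control C1 and C6 (log2 fold change -0.19), and the labels do not say what the letter marks.

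Acer1, the alkaline ceramidase of the differentiated epidermis, was the highest ceramidase and did not separate the genotypes. It was at 266, 319, 355 and 316 CPM in control and 288, 302, 310.4 and 289 CPM in RoraEKO, with a log2 fold change of -0.08 (SE 0.09, adjusted p = 0.838). Its sign turned, at 0.07, without control C1 and C6. Per kb of merged exons it made up 81.8% to 89.6% of the family's summed level in control and 90.4% to 93.8% in RoraEKO, and with canonical transcript lengths 71.1% to 82.4% and 83.8% to 89.2%. The family's summed level was 122 to 165 CPM per kb in control and 127 to 141 CPM per kb in RoraEKO, so the sums overlapped while the shares did not. Acer2 made up 1.86% to 2.51% of the sum in control and 0.772% to 1.04% in RoraEKO.

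**Figure D3:**
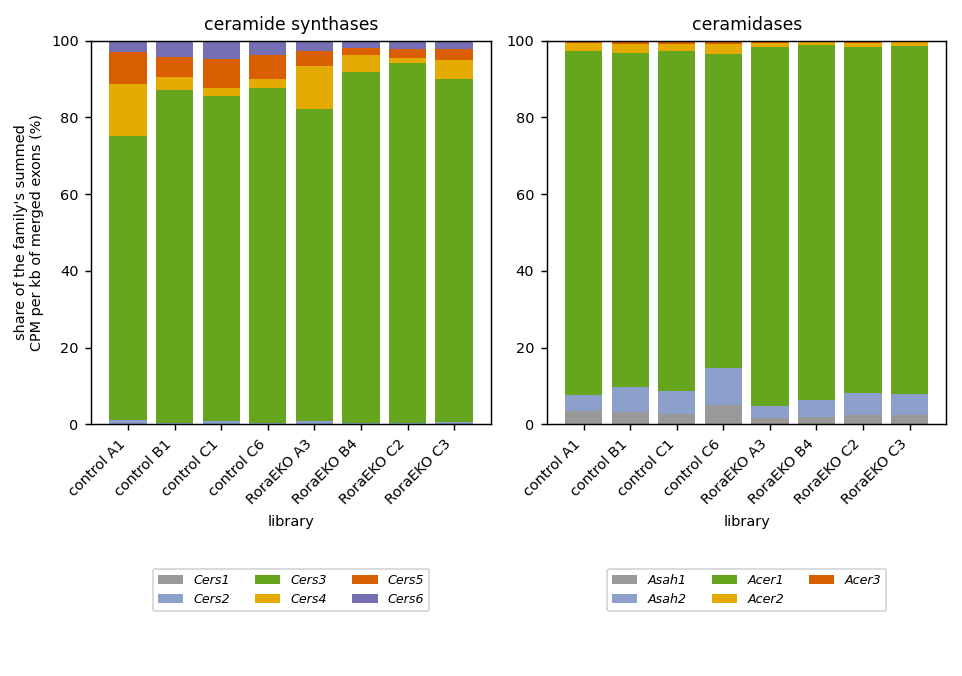
Stacked bars of each gene's share (%) of its family's summed CPM per kb of merged exons in each library, for ceramide synthases (left) and ceramidases (right). Cers3 and Acer1 fill most of every bar, and the bands of Cers5 and Cers6 on the left and of Acer2 on the right are thinner in the RoraEKO libraries.

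Of 8 genes of S1P turnover 2 fell, beside 3.22% of all genes, and the median log2 fold change was -0.36, beside -0.04. Both, Sgpl1 and Plpp1, are among the genes that the study displays from these libraries. Sgpl1 (ENSMUSG00000020097, chromosome 10, 60934421 to 61011826) codes for S1P lyase, which cleaves S1P irreversibly. It was at 256, 328, 314 and 425 CPM in control and 159, 133, 203 and 174 CPM in RoraEKO. No RoraEKO library reached the lowest control, and Sgpl1 fell by 0.98 on the log2 scale (SE 0.20, adjusted p = 0.0140), or 1.98-fold. Without control C1 and C6 the log2 fold change was -0.76 with an adjusted p of 0.105, so the call was lost there.

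Plpp1 (ENSMUSG00000021759, chromosome 13, 112937278 to 113005534), a membrane phosphatase that removes phosphate from S1P, ceramide 1-phosphate and other lipid phosphates, had the largest fold change of the 40 members. It was at 12.2, 11.8, 11.7 and 14.0 CPM in control and 3.20, 3.37, 1.59 and 2.60 CPM in RoraEKO. It fell by 2.21 on the log2 scale (SE 0.24, adjusted p = 0.00062), or 4.63-fold, and by 2.10 without control C1 and C6 (adjusted p = 0.0138). Its relatives did not pass. Plpp2 was at 26.2 to 32.1 CPM in control and 27.2 to 36.5 CPM in RoraEKO, and Plpp3 at 17.8 to 26.8 CPM and 15.4 to 22.1 CPM, with adjusted p values of 0.858 and 0.805. Plpp1 supplied 2.44% to 3.39% of the summed CPM per kb of the 5 phosphatases in control and 0.367% to 1.02% in RoraEKO. Sgpl1 overlaps Tbata and Plpp1 overlaps Mtrex on the opposite strand. The libraries were stranded, but whether the counting used strand is not given in the sources used here. If it did not, reads of these pairs cannot be told apart.

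The S1P-specific phosphatase Sgpp1 was the highest of this role per length, at 326, 502, 476 and 602 CPM in control and 289.5, 305, 449 and 382 CPM in RoraEKO (log2 fold change -0.42, SE 0.24, adjusted p = 0.361, or -0.17 and 0.772 without control C1 and C6). Sgpp2 stayed below 8 CPM. Sphingosine kinase 1, Sphk1, was at 91.2, 101, 108 and 125 CPM in control and 64.2, 82.1, 89.7 and 76.2 CPM in RoraEKO. All RoraEKO values were below the controls, with RoraEKO C2 close to control A1, and the log2 fold change of -0.44 (SE 0.14) had an adjusted p of 0.118, or -0.25 and 0.484 without control C1 and C6. Sphk2 had a log2 fold change of -0.29 (SE 0.15, adjusted p = 0.343). It overlaps Dbp, a circadian gene on the opposite strand that fell by 3.17 on the log2 scale and was at 3.98 to 6.01 CPM in control, beside 74.5 to 106 CPM for Sphk2. Over all roles, 8 of 40 members had every RoraEKO library below every control, beside 7.54% of all genes, and they were Cers5, Cers6, Smpd1, Asah1, Acer2, Sphk1, Sgpl1 and Plpp1.

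**Figure D4:**
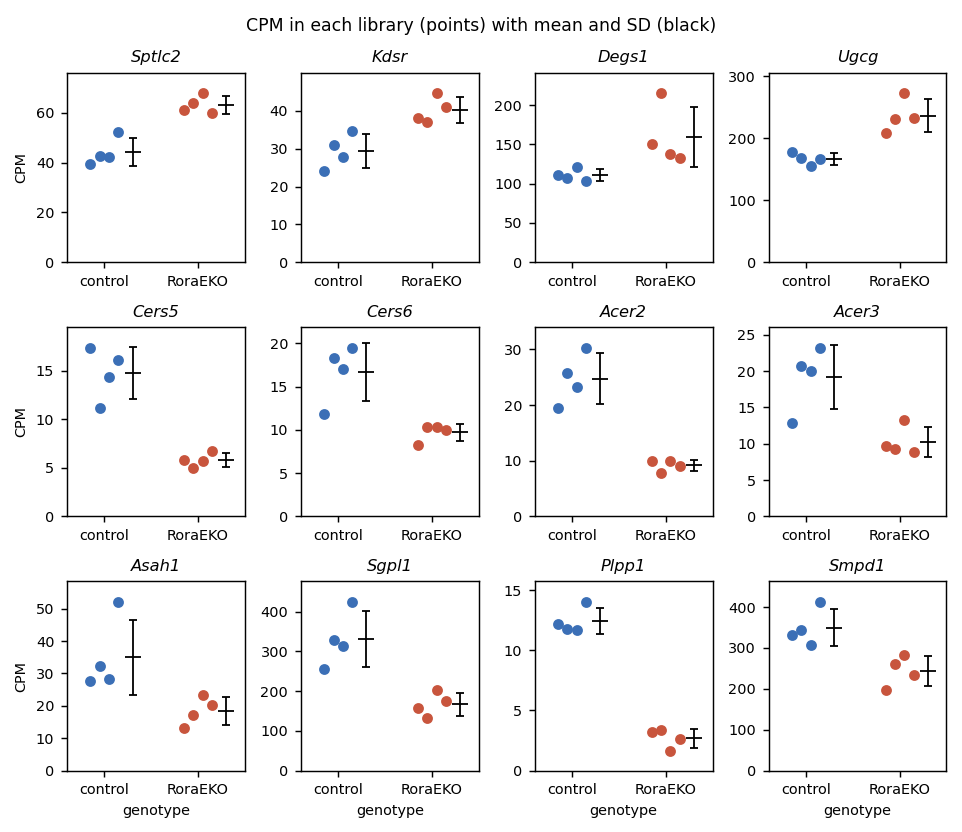
CPM of 12 members in each of the 4 control (blue) and 4 RoraEKO (red) libraries, with mean and SD in black and each axis starting at 0. Sptlc2, Kdsr, Degs1 and Ugcg lie higher in RoraEKO, the other 8 lie lower, and only Acer3 overlaps between genotypes.

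Setting the routes side by side, none of the 8 genes for serine palmitoyltransferase and its regulators fell. None of the 4 for reduction, desaturation and hydroxylation did either. Nor did any of the 5 for transport and head groups, whose median was positive, or of the 5 for ceramide release. Over all genes tested 3.22% fell, so 0 calls in roles of this size say little. All 6 calls came from ceramide synthases, ceramidases and S1P turnover. The 7 genes that the study displays from these libraries all lie in those roles, so where the calls lie was not independent of that choice. The values are counts and medians, and the difference between roles was not tested. In each of the 21 alternatives the calls of Plpp1, Acer2 and Cers5 held, and in 18 that of Sgpl1 did. Acer3 passed under 12 and Cers6 under 11, and with single libraries left out in 8 fits, Acer3 passed in 2 and Cers6 in 1. Both passed without control A1, and Acer3 also without RoraEKO C2, and leaving out any other library ended both calls, as leaving out RoraEKO C2 did for Cers6. Their direction held under the 21 alternatives, where the log2 fold change of Acer3 lay between -1.06 and -0.67 and that of Cers6 between -0.91 and -0.58. Over the alternatives the largest adjusted p was 0.0138 for Plpp1 and Acer2, 0.0288 for Cers5, 0.105 for Sgpl1 and 0.224 for Acer3 and Cers6, and the smallest lay at or below 0.00408 for each of these 6. For the members that were higher, the adjusted p ranged from 0.00192 to 0.111 for Sptlc2, from 0.000428 to 0.188 for Ugcg and from 0.0284 to 0.451 for Gba2.

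**Figure D5:**
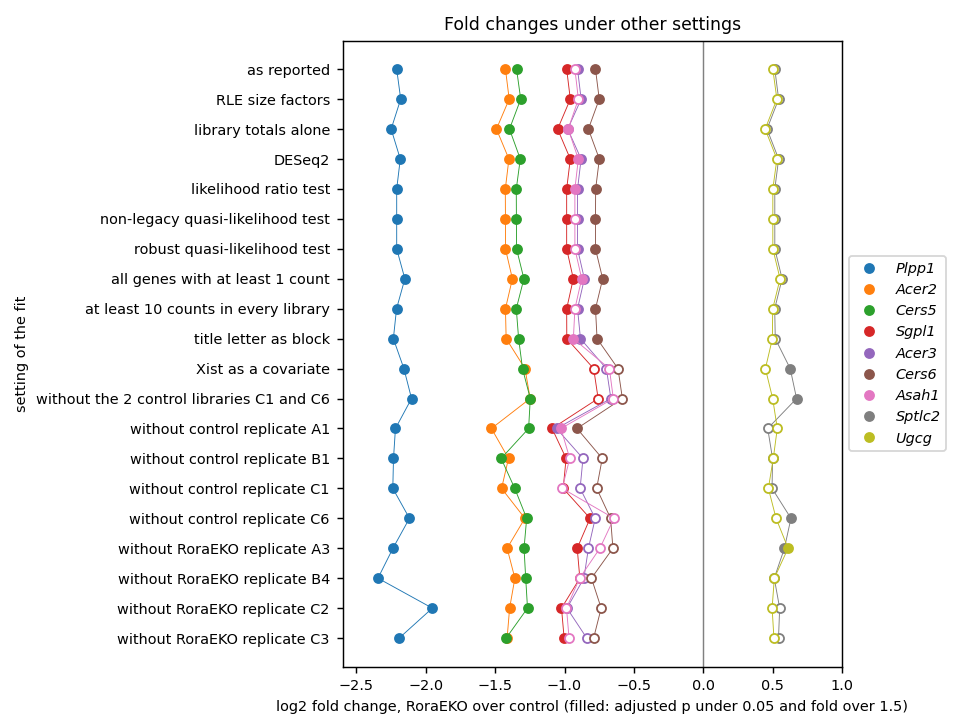
Log2 fold change of RoraEKO over control (x axis) of 9 members under the reported fit and each other setting of the fit (rows), filled where both cutoffs were passed. Plpp1, Acer2 and Cers5 are filled in every row, whereas Acer3, Cers6 and Asah1 turn open in most rows that leave out libraries, and no member shown changes sign.

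Further genes of the same pathway, listed by function with the study's own lipid list known, gave 5 lower and 1 higher of 42 tested (45 listed), beside 3.22% and 2.3% of all genes. Of 9 genes that handle the aldehydes and acyl-CoAs arising after S1P lyase, 3 fell, beside 3.22% of all genes tested, and 6 had every RoraEKO library below every control, beside 7.54%. The log2 fold change was below 0 in all 9, among them Acsl1 at -0.003 and Acsl3 at -0.03, and in 56.1% of all genes. Hacl1, a lyase of 2-hydroxyacyl-CoAs, was at 6.20 to 9.56 CPM in control and 1.03 to 3.33 CPM in RoraEKO (log2 fold change -1.91, adjusted p = 0.00757). The acyl-CoA synthetase gene Acsl4, at 17.8 to 22.1 CPM in control and 8.77 to 12.4 CPM in RoraEKO, fell by 0.94 on the log2 scale (adjusted p = 0.00568). Its relative Acsl6, at 6.13 to 27.5 CPM in control and 0 to 2.60 CPM in RoraEKO, fell by 3.55 (SE 1.21, adjusted p = 0.0352). Hacl1, Acsl4 and Acsl6 are in the study's list from these libraries. Aldh3a2, the fatty aldehyde dehydrogenase that takes the aldehyde made by S1P lyase, was at 34.8, 40.7, 42.6 and 76.3 CPM in control and 23.6, 19.6, 31.9 and 32.6 CPM in RoraEKO. Its groups did not overlap, and its adjusted p was 0.104 (log2 fold change -0.85, SE 0.30).

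In lysosomal breakdown of glycosphingolipids, 2 of 11 genes fell, beside 3.22% of all genes, and 10 had a log2 fold change below 0, beside 56.1%, with Galc at -0.03. Fuca1, a lysosomal fucosidase that the study also lists, was at 168, 153, 185 and 189.9 CPM in control and 69.0, 49.4, 57.0 and 48.4 CPM in RoraEKO, and fell by 1.64 on the log2 scale (SE 0.14, adjusted p = 0.000339). Glb1, the lysosomal beta-galactosidase, was at 16.3, 15.8, 12.3 and 20.5 CPM in control and 4.05, 5.30, 5.78 and 4.24 CPM in RoraEKO, and fell by 1.74 (SE 0.19, adjusted p = 0.000911). In both, all controls were above all RoraEKO libraries. Glycosphingolipid synthesis (7 tested) and S1P receptors and export (6 tested) had no gene past the cutoffs, beside 3.22% lower and 2.3% higher of all genes. Each had 1 gene at an unadjusted p under 0.05. Those were A4galt (log2 fold change -2.53, adjusted p = 0.0575) and S1pr5 (0.60, adjusted p = 0.104), and DESeq2 called both. The 1 gene that rose was Smpdl3a, an acid sphingomyelinase-like phosphodiesterase, at 49.7, 32.4, 30.6 and 37.0 CPM in control and 69.4, 83.4, 81.6 and 63.8 CPM in RoraEKO (log2 fold change 0.99, SE 0.18, adjusted p = 0.00829), opposite in sign to Smpd1.

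Without control C1 and C6, Fuca1 and Glb1 were still called, with adjusted p values of 0.00742 and 0.00635, the largest over 19 alternatives. The other 4 no longer passed, although their log2 fold changes kept their sign and most of their size. Hacl1 was at -1.95 (adjusted p = 0.0504), Smpdl3a at 0.91 (0.0746), Acsl4 at -0.81 (0.0762) and Acsl6 at -2.92 (0.189), and none was newly called. Their smallest adjusted p values over the alternatives lay at or below 0.00534. Acsl6 passed in 10 of 18 alternatives, and the other 3 in 17 or 18 of 19.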

How the data were processed

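The expected counts per gene were deposited by the authors for 8 libraries (TruSeq Stranded polyA libraries of dorsal epidermis), without scaling. Per the labels and the study's methods, reads were trimmed with Skewer, mapped to GRCm39 with STAR 2.5.3a and counted with RSEM, and the annotation release is not given in the sources used here. Of 55416 identifiers, 54749 were found in GENCODE M39 (GRCm39), which gave symbols, coordinates and exon lengths. After rounding, filterByExpr kept 13147 genes, which were TMM-scaled and tested in R 4.3.3 with edgeR 4.0.16 (quasi-likelihood test), with Benjamini-Hochberg adjustment over all genes tested and cutoffs of 0.05 and a fold change of 1.5. The scripts were tested on simulated data. The SE of a log2 fold change comes from the spread of log2 CPM (with a prior count of 2) over 4 libraries per genotype. Floors of 3 counts cover counting error only.

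The members, roles, further lists and tests were chosen with earlier results of these data known. Values in every library were given for members past the cutoffs, the 7 displayed genes, members with an unadjusted p under 0.05 and the highest member per kb of each role. Fa2h, Cers4 and Asah2 were added after their values were seen. Alternatives were other scalings, tests (DESeq2 1.42.0), filters and cutoffs, the first letter of the sample titles as a block, Xist as a covariate, and leaving out libraries.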

Additional observations from a re-analysis of the deposited data

Results flagged for a closer look

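In 80 groups of 4 libraries, 1 library of a group stood apart from the other 3 by Dixon's criterion 3 times, and chance alone gives about 1 in 20 groups. Fa2h was at 96.1 CPM in control A1, against 3.74 to 16.7 CPM in the other 3 controls. Cers4 was at 78.4 CPM in the same library, against 11.1 to 21.7 CPM. Cers6 was at 8.22 CPM in RoraEKO A3, against 10.04 to 10.3 CPM in the other RoraEKO libraries, and without A3 its log2 fold change was -0.65 and no longer passed the cutoffs.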

How the results depend on the processing

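The number of members that fell, 6, was 3 with Xist as a covariate, 3 without control C1 and C6 and 3 at an adjusted p of 0.01, and ranged from 4 to 7 when each library was left out. Acer2, Cers5 and Plpp1 were called each time. The number that rose, 0, was 1 with Xist as a covariate, 1 without control C1 and C6 (Sptlc2 in each) and 2 with no fold cutoff (Sptlc2 and Ugcg), and ranged from 0 to 3 when each library was left out, with 3 without RoraEKO A3 (Gba2, Sptlc2 and Ugcg). The cause was not tested, except that the cutoff settings differ by construction. Among the further pathway genes, the 5 calls of lower genes became 2 and the 1 of a higher gene became 0 without control C1 and C6, while the log2 fold changes of the 4 that lost their call stayed at -1.95 (Hacl1), -0.81 (Acsl4), -2.92 (Acsl6) and 0.91 (Smpdl3a), an alternative for these lists that was chosen after seeing the data. The median log2 fold change of the members ranged from -0.09 (without RoraEKO C2) to -0.23 (without RoraEKO B4).

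Over all genes, the counts of lower and higher calls, 423 and 302, were 553 and 478 with DESeq2, 290 and 182 with Xist as a covariate, 167 and 147 without control C1 and C6, and 231 and 131 at an adjusted p of 0.01. Of 441 single-gene values, 393 kept their sign and side of the cutoffs, 22 lost a call, 15 gained one and 11 changed sign. Acer1 was at 0.0285 with Xist as a covariate and 0.0740 without control C1 and C6. Cers4 was at 0.0136 with RLE size factors, 0.0178 with DESeq2, 0.0415 with all genes tested and 0.28 with the title letter as a block, and Fa2h was at 0.51 with that block. When each library was left out, Fa2h ranged from -0.475 to 1.34 and Cers4 from -0.307 to 0.923, and with Xist as a covariate they were at -0.86 and -0.68. With the block 8 members fell, with Asah1 and Asah2 added, and the labels do not say what the letter marks.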
